A study of Mus musculus with 6 samples.

Results

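The replication-dependent histone genes are the multicopy genes that supply the linker histone H1 and the core histones H2A, H2B, H3 and H4 to newly replicated DNA. They were taken as the rows of the deposited expression table whose symbol begins with Hist1h, Hist2h, Hist3h or Hist4h. This gave 68 genes of 24525 rows, and 1 further row, a pseudogene by its symbol, was left out. The 68 genes comprise 6 H1, 19 H2A, 18 H2B, 12 H3 and 13 H4 genes. Beyond the symbol, the set was chosen by its TPM in the mutant and wild-type libraries, whose difference was already known. That difference is therefore given for the members as a description. No p-value of a member is given, and counts of members called in the fit over all genes are no test of the set.

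Most mRNAs end in a poly(A) tail, whereas replication-dependent histone mRNAs end just after a short conserved stem-loop that the stem-loop binding protein recognises. Their synthesis and their stability are tied to S phase, so these mRNAs are abundant in dividing cells and scarce in cells that have left the cycle, such as most adult cardiomyocytes. Each core histone is encoded by many copies with nearly the same coding sequence, and some copies also make a polyadenylated mRNA in non-dividing cells. The replication-independent variants, such as H3.3 and macroH2A, come from other genes, many of which have introns and ordinary poly(A) tails.

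Heart RNA of mice between 3 and 6 months old was sequenced in 6 libraries. The mutant group (DKO, replicates 7, 8 and 9) carried the genotype Mbnl1-/-; Mbnl2cond/cond; Myh6-Cre+/-, and the other group (WT, replicates 4, 5 and 6) is labelled only as wild type. The Myh6 promoter drives Cre in cardiomyocytes, so by this genotype the conditional Mbnl2 allele is intact in the other cells of the DKO heart, whereas the Mbnl1 mutation is carried by all cells. Total RNA went into strand-specific paired-end libraries. DKO replicate 7 is DKO by title and source name but WT by its genotype tag, and it was kept in DKO. The labels do not state that each library is its own animal, and p-values reflect no more than the spread from library to library. Values are TPM, a transcript abundance divided by transcript length and by the library total, so levels can be set side by side between genes. A difference is the DKO mean of log2(TPM + 1) less the WT mean, a scale that understates the change of low genes. Errors are SD of 3 libraries unless called SE.

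The stem-loop was found in annotated transcripts of 46 of the 68 genes, 67.6%, against 22 of 21834 other protein-coding genes, 0.10% (GENCODE M21, GRCm38). A missing match need not mean a missing stem-loop. Some annotated transcripts stop near the end of the coding sequence, such as that of Hist1h3i, with 408 coding bases of 411. The stem-loop is shown here because it defines this class of mRNA and because its letters separate H4 from the other types. The 16 bases of the stem-loop are in capitals, with 5 bases on each side in lower case, and each is written 5′ to 3′ on the strand of its gene.
Hist1h1c: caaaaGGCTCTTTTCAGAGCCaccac
Hist2h2aa1: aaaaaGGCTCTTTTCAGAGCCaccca
Hist1h3b: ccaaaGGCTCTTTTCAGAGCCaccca
Hist1h3e: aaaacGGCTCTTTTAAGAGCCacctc
Hist1h3g: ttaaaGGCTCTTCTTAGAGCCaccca
Hist1h4d: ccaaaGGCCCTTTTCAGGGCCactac
Hist1h4b: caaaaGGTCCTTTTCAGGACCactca
These lie at chr13:23739512-23739527 (Hist1h1c, plus strand), chr3:96246032-96246047 (Hist2h2aa1, plus), chr13:23752820-23752835 (Hist1h3b, plus), chr13:23561903-23561918 (Hist1h3e, minus), chr13:23535889-23535904 (Hist1h3g, plus), chr13:23581950-23581965 (Hist1h4d, plus) and chr13:23757366-23757381 (Hist1h4b, plus). The form printed for Hist1h1c, Hist2h2aa1 and Hist1h3b was the most frequent and occurred in 3 H1, 10 H2A, 8 H2B and 5 H3 genes. No H4 gene carried it. The H4 genes had the form of Hist1h4d in 7 genes and 3 other forms in 5 genes, and each of these H4 forms occurred in H4 genes only.

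Within the coding sequence, copies of a core histone differ mainly at silent positions. These positions, together with annotated sequence outside the coding part, let reads be assigned to one copy and not another. The first 90 coding bases of the 3 most abundant H4 genes and of Hist1h4f show how many positions separate them, with bases that differ from Hist1h4d in capitals (GENCODE M21).
Hist1h4d: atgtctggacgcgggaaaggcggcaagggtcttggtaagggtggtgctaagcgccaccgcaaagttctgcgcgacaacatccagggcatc
Hist1h4h: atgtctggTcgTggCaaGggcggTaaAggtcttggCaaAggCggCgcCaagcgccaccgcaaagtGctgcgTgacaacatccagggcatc
Hist1h4c: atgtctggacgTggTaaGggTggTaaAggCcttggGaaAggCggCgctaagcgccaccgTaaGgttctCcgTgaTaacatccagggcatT
Hist1h4f: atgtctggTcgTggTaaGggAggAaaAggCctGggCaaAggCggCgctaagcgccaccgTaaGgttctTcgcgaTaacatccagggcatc
Over the 309 coding bases, Hist1h4h differed from Hist1h4d at 19 positions, and Hist1h4c and Hist1h4f each at 23. Of all 31-base words in the annotated transcripts of a gene, the median share found in no other gene was 96.2% for H1, 20.2% for H2A, 42.6% for H2B, 36.9% for H3 and 52.1% for H4. The most abundant H1 genes, Hist1h1c and Hist1h1e, had 88.6% and 65.3%. For many core histone copies most words are shared, so a level is an estimated split of shared reads. For that reason the sums over a type are given first.

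Summed over the 68 genes, the level was 3052, 2680.2 and 2968 TPM in DKO 7, 8 and 9, against 1865, 2171 and 2269 TPM in WT 4, 5 and 6. The groups did not overlap, and the mean was 2900 ± 195 TPM in DKO and 2102 ± 211 TPM in WT (n = 3 each), a ratio of 1.38. The genes took from 0.268% to 0.305% of all TPM in DKO libraries and from 0.186% to 0.227% in WT libraries. H4 genes held the largest share of the histone total, 38.7% in DKO and 39.5% in WT, and H3 genes the smallest, 9.12% in DKO and 6.55% in WT.

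The 5 types did not have the same ratio. H3 genes, whose protein is the chief carrier of histone tail marks, summed to 284, 237 and 272 TPM in DKO 7, 8 and 9, against 112, 147 and 154 TPM in WT 4, 5 and 6. Every DKO library was above every WT library, the ratio was 1.92, and this was the highest of the 5 types. H1 genes averaged 519.6 ± 69.0 TPM in DKO and 356 ± 23.5 TPM in WT, a ratio of 1.46 with no overlap. H2B genes averaged 462 ± 49.4 TPM in DKO and 339 ± 36.9 TPM in WT, a ratio of 1.36 with no overlap. H4 genes averaged 1124 ± 50.5 TPM in DKO and 829 ± 71.0 TPM in WT, a ratio of 1.35 with no overlap. H2A genes had the lowest ratio, 1.21, with 557, 488 and 547 TPM in DKO 7, 8 and 9 and 358, 473 and 488 TPM in WT 4, 5 and 6. For H2A the groups touched, since DKO 8 had 487.9 TPM and WT 6 had 487.6 TPM. No test was made of the differences between types.

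**Figure D1:**
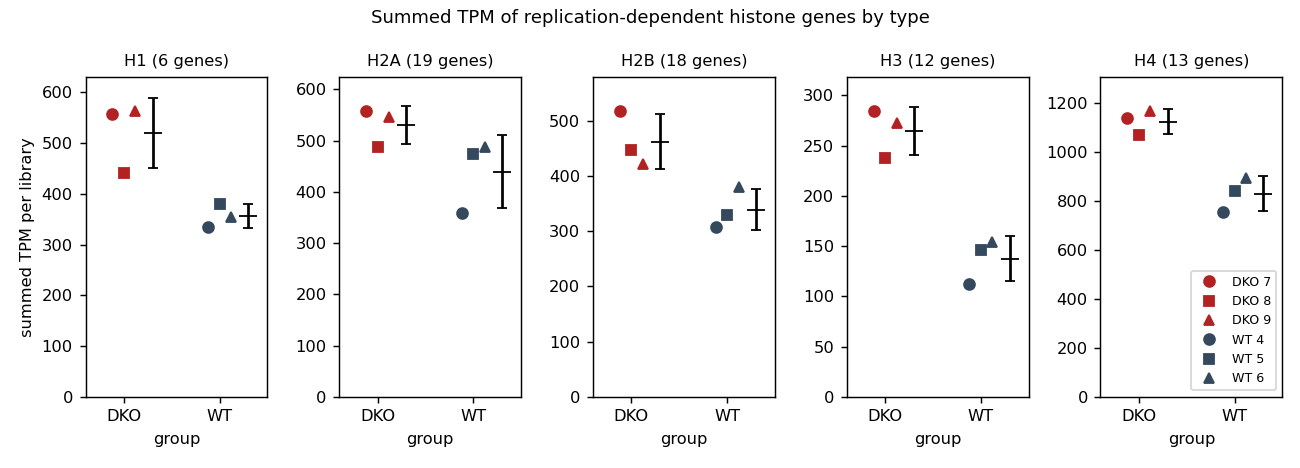
Summed TPM of the genes of each histone type (vertical axis, from 0) in each DKO and WT library, with the mean and SD of 3 libraries beside the points. The DKO points lie above all WT points for H1, H2B, H3 and H4, and DKO 8 and WT 6 are level for H2A.

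Within H3, 4 genes (Hist1h3a, Hist1h3g, Hist1h3h and Hist1h3i) encode H3.1 and 8 encode H3.2, which differs from H3.1 at a single residue. The H3.1 genes summed to 72.2 ± 9.72 TPM in DKO and 27.6 ± 2.68 TPM in WT, a ratio of 2.61. The H3.2 genes summed to 192 ± 14.6 TPM in DKO and 109.9 ± 20.03 TPM in WT, a ratio of 1.75. Neither sum overlapped between the groups.

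Of the 68 genes, 62 had at least 1 TPM in at least 3 libraries and entered the fit over 14541 genes. Of these, 15 had fewer than 3 WT libraries at 1 TPM and so passed with the help of DKO libraries, and 0 passed with no WT library at 1 TPM. Hist1h1t, Hist1h2aa, Hist2h2aa2, Hist1h2bp, Hist1h2ba and Hist2h3c1 did not pass. Hist1h2aa and Hist1h2ba, which encode testis histones in the mouse, and Hist2h2aa2 were listed at 0 in all 6 libraries, and Hist1h1t, the testis H1 gene, was listed at 0 in all libraries but WT 4. The limma fit (Benjamini-Hochberg, BH, adjusted p under 0.05 over all genes tested) called 9 histone genes higher in DKO and 0 lower. That is 14.5% of the 62, beside 6.51% of all genes called higher and 4.22% called lower. In 23 of the 62, 37.1%, all DKO values lay above all WT values, beside 19.1% of all genes tested. In 1 gene all DKO values lay below all WT values, beside 13.8% of all genes tested. The remaining 38 overlapped. Mean TPM was higher in DKO in 56 of the 62. The median difference on the log2 scale was 0.73, beside 0.03 over all genes tested. Because the set was chosen with this difference known, nothing is read from these shares.

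The 9 genes called higher were Hist1h1b, Hist1h1d, Hist1h2ab, Hist1h2bl, Hist1h3b, Hist1h3g, Hist1h3i, Hist1h4d and Hist1h4f. They rest on the same values that chose the set, and Hist1h2ab reached 1 TPM in 2 of the 3 WT libraries. In the 6 fits that leave out 1 library the number of histone genes called ran from 5 to 12, with 5 without DKO 9. Hist1h2bl, Hist1h3b, Hist1h3i and Hist1h4d were called in all 6 of those fits. Hist1h1b, Hist1h1d and Hist1h2ab were called in 2 of them, and Hist1h3g and Hist1h4f in 1. The share of all genes called in each of those fits is not given here.

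**Figure D2:**
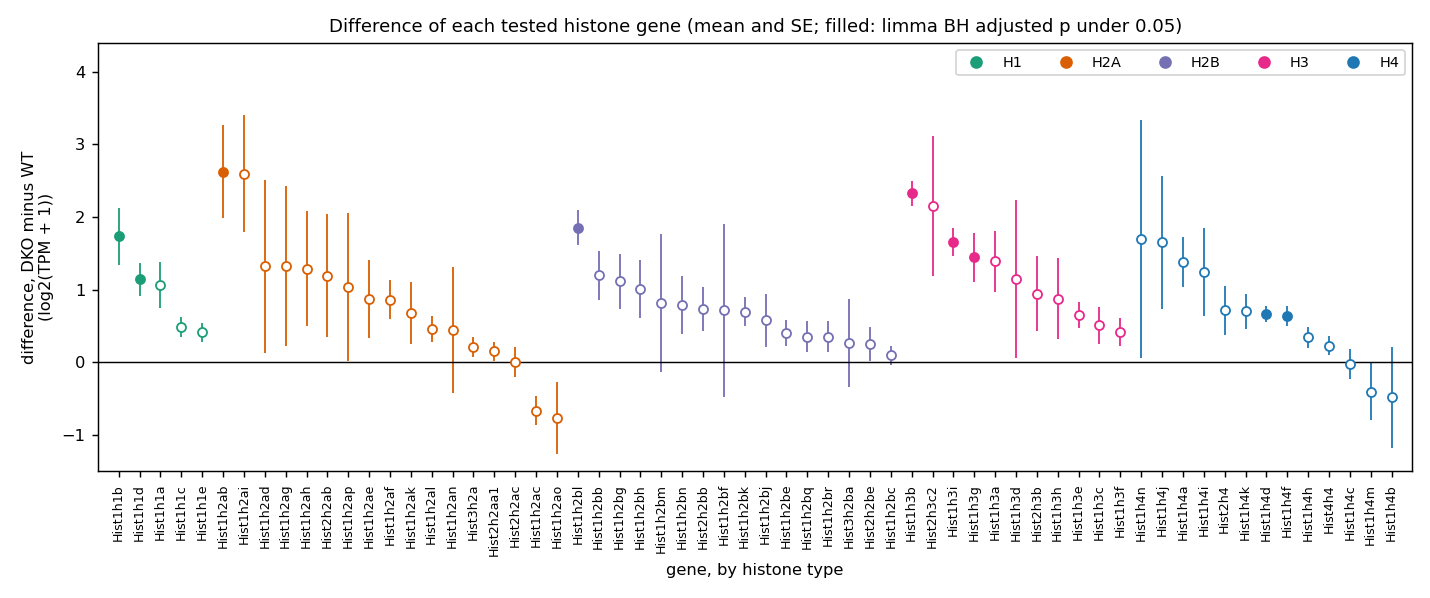
Difference between DKO and WT on the log2(TPM + 1) scale (vertical axis) for each of the 62 histone genes tested, in order of size within each type; lines are the SE of the limma fit and filled points are the 9 genes called. Most points lie above 0, and long lines mark genes whose values varied most between libraries of a group.

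Among the linker histones, Hist1h1c (chr13:23738808-23740367, plus strand) was the most abundant of all 68 genes. It had 392, 289 and 390.1 TPM in DKO 7, 8 and 9, against 241, 280.1 and 236 TPM in WT 4, 5 and 6. The groups did not overlap, although DKO 8 and WT 5 were close, and the difference was 0.49 (SE 0.14). Hist1h1c made up 68.7% of the H1 sum in DKO and 70.8% in WT. It is one of the histone genes known to give a polyadenylated mRNA in non-dividing cells. Hist1h1e, the second H1 gene by level, averaged 110.0 ± 10.8 TPM in DKO and 83.0 ± 13.4 TPM in WT (difference 0.41, SE 0.13).

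The 3 lower H1 genes had larger ratios. Hist1h1d had 35.1, 21.5 and 30.0 TPM in DKO 7, 8 and 9, against 15.97, 9.63 and 12.02 TPM in WT 4, 5 and 6, a ratio of 2.30 (difference 1.14, SE 0.23). Hist1h1b had 12.9, 14.0 and 9.89 TPM in DKO 7, 8 and 9, against 3.30, 1.15 and 5.66 TPM in WT 4, 5 and 6, a ratio of 3.63 (difference 1.73, SE 0.40). Hist1h1a had 16.5, 6.82 and 10.8 TPM in DKO 7, 8 and 9, against 3.59, 6.26 and 4.33 TPM in WT 4, 5 and 6, a ratio of 2.40 (difference 1.06, SE 0.32). All 5 tested H1 genes had every DKO value above every WT value, beside 19.1% of all genes tested. For Hist1h1a the margin was narrow, with 6.82 TPM in DKO 8 and 6.26 TPM in WT 5. For Hist1h1b the ratio depended on WT 6, and it was 5.51 without that library.

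Among the H2A genes, Hist2h2aa1 (chr3:96245497-96246082, plus) held 47.8% of the H2A sum in DKO and 52.2% in WT. It had 278, 229.6 and 253 TPM in DKO 7, 8 and 9, against 190.0, 254 and 245 TPM in WT 4, 5 and 6. The groups overlapped, and the difference was 0.15 (SE 0.13). Its coding sequence is identical to that of Hist2h2aa2, listed at 0 in every library, so the value stands for both copies. Hist3h2a averaged 72.3 ± 5.06 TPM in DKO and 62.9 ± 11.9 TPM in WT, and Hist2h2ac averaged 54.7 ± 5.21 TPM in DKO and 56.0 ± 17.0 TPM in WT. Both overlapped, so none of the 3 most abundant H2A genes separated the groups.

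A pair of lower H2A genes had the highest ratios of the 62 genes tested. Hist1h2ab (chr13:23751126-23751598, plus) had 18.2, 13.4 and 19.5 TPM in DKO 7, 8 and 9, against 2.55, 0 and 5.79 TPM in WT 4, 5 and 6. The difference was 2.63 (SE 0.64), and the ratio of means, 6.13, became 13.3 without WT 6 and 4.08 without WT 5. Hist1h2ai (chr13:21716422-21716814, plus) had 21.3, 3.92 and 10.2 TPM in DKO 7, 8 and 9, against 4.57 TPM in WT 4, with WT 5 and WT 6 listed at 0. DKO 8 lay below WT 4, so the groups overlapped, and without DKO 7 the ratio of 7.74 became 4.63. Hist1h2ai has 7.99% unique words and Hist1h2ab has 37.0%. Hist1h2af had 15.4, 30.6 and 27.2 TPM in DKO 7, 8 and 9, against 15.4, 10.1 and 12.4 TPM in WT 4, 5 and 6. Its lowest DKO and highest WT values were level at the digits given. Hist1h2ac (chr13:23681467-23683948, minus), named after its values were seen, was the only one of the 62 tested genes with every DKO value below every WT value. It had 12.6, 8.09 and 8.52 TPM in DKO 7, 8 and 9, against 14.2, 14.0 and 19.6 TPM in WT 4, 5 and 6 (difference -0.67, SE 0.20), and the limma fit did not call it.

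Among the H2B genes, Hist1h2bc (chr13:23684199-23692908, plus), which the annotation gives as a spliced transcript with a second exon, was the most abundant. It had 186, 153 and 152 TPM in DKO 7, 8 and 9, against 155, 129 and 177 TPM in WT 4, 5 and 6, with overlap and a difference of 0.10 (SE 0.13). Its part of the H2B sum was 35.5% in DKO and 45.4% in WT. Without it, the H2B sum had a ratio of 1.61 in place of 1.36. Hist1h2be averaged 64.0 ± 9.82 TPM in DKO and 48.6 ± 11.6 TPM in WT, with overlap. Hist1h2bg had 51.1, 29.1 and 41.2 TPM in DKO 7, 8 and 9, against 9.32, 25.4 and 23.0 TPM in WT 4, 5 and 6, with no overlap and a difference of 1.11 (SE 0.38). Hist2h2bb averaged 35.8 ± 9.33 TPM in DKO and 21.7 ± 9.24 TPM in WT, with overlap. Hist1h2bl (chr13:21715763-21716143, minus) had 10.1, 14.9 and 11.1 TPM in DKO 7, 8 and 9, against 2.11, 3.86 and 2.00 TPM in WT 4, 5 and 6. The lowest DKO value was well above the highest WT value, the ratio was 4.53 and the difference was 1.85 (SE 0.24). Hist1h2bl has 11.4% unique words and Hist2h2bb has 0%. Only 7.98% of the words of Hist2h2bb are shared with other members. Its words are thus shared mostly with genes outside the set, which the H2B sum does not absorb.

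Among the H3 genes the level was spread over more copies, and the most abundant, Hist1h3e (chr13:23561534-23562369, minus), held 21.7% of the H3 sum in DKO and 26.6% in WT. It had 64.4, 50.1 and 57.9 TPM in DKO 7, 8 and 9, against 36.8, 44.6 and 28.4 TPM in WT 4, 5 and 6, with no overlap and a difference of 0.65 (SE 0.17). Hist1h3b, an H3.2 gene (chr13:23752267-23752886, plus), had 26.4, 31.8 and 20.9 TPM in DKO 7, 8 and 9, against 4.09, 5.04 and 4.08 TPM in WT 4, 5 and 6. Its WT values lay within 1 TPM of each other and far below the lowest DKO value, with a ratio of 6.00 and a difference of 2.33 (SE 0.17). Hist1h3i, an H3.1 gene (chr13:21782960-21783370, minus), had 34.9, 25.4 and 27.9 TPM in DKO 7, 8 and 9, against 7.80, 11.1 and 7.18 TPM in WT 4, 5 and 6. The ratio was 3.38 and the difference 1.66 (SE 0.19). Hist1h3c averaged 27.4 ± 8.63 TPM in DKO and 18.5 ± 3.56 TPM in WT, and Hist2h3b averaged 25.5 ± 10.6 TPM in DKO and 14.0 ± 10.7 TPM in WT, both with overlap. Without WT 6, which had 26.4 TPM, the ratio of Hist2h3b was 3.23 in place of 1.81. Hist1h3g had a ratio of 2.88, or 4.56 without WT 4. Shares of unique words are 15.6% for Hist1h3e, 38.1% for Hist1h3b, 6.82% for Hist1h3i and 0% for Hist2h3b.

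Among the H4 genes, Hist1h4d and Hist1h4h were both near the level of Hist1h1c. Hist1h4d (chr13:23581598-23582735, plus) had 376, 293 and 355 TPM in DKO 7, 8 and 9, against 207, 202 and 231 TPM in WT 4, 5 and 6. The groups did not overlap, and the difference was 0.67 (SE 0.11). Hist1h4h (chr13:23531050-23531519, plus) had 292, 318 and 334 TPM in DKO 7, 8 and 9, against 221, 313 and 219 TPM in WT 4, 5 and 6. WT 5 lay within the DKO range, and the difference was 0.34 (SE 0.14). Hist1h4c (chr13:23697635-23698454, minus) had 156, 114 and 128 TPM in DKO 7, 8 and 9, against 100.4, 139.6 and 170.3 TPM in WT 4, 5 and 6, with a difference of -0.03 (SE 0.20). Thus Hist1h4d made up 30.4% of the H4 sum in DKO and 25.7% in WT, whereas Hist1h4c made up 11.8% in DKO and 16.5% in WT. Hist2h4, which has 97.4% unique words, had 65.0, 75.7 and 82.6 TPM in DKO 7, 8 and 9, against 60.3, 24.3 and 60.6 TPM in WT 4, 5 and 6, with no overlap (difference 0.72, SE 0.34). Hist1h4f averaged 48.3 ± 0.908 TPM in DKO and 31.1 ± 6.04 TPM in WT (difference 0.64, SE 0.14).

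Across the set, the ratio was higher at low levels. The 27 genes with a mean under 10 TPM over the 6 libraries summed to 185 ± 26.8 TPM in DKO and 88.0 ± 27.9 TPM in WT, a ratio of 2.10. The 29 genes between 10 and 50 TPM summed to 728 ± 29.7 TPM in DKO and 418 ± 55.1 TPM in WT, a ratio of 1.74. The 12 genes at 50 TPM or more summed to 1987 ± 160 TPM in DKO and 1596 ± 144 TPM in WT, a ratio of 1.25. These 12 genes held 68.5% of the histone total in DKO and 75.9% in WT. Over the 62 tested genes, the log2 mean level and the difference had a Pearson r of -0.32 and a Spearman rho of -0.37. This is across genes, which share libraries and reads and are not independent, and is given as a description only.

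**Figure D3:**
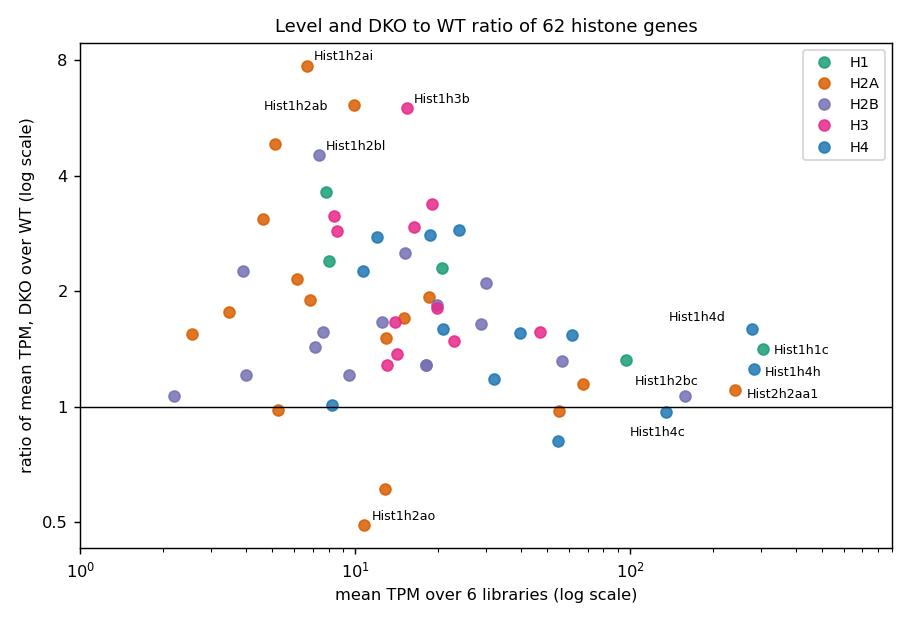
Ratio of mean TPM, DKO over WT (vertical axis, log scale), against mean TPM over the 6 libraries (horizontal axis, log scale) for the 62 histone genes tested, coloured by type. Genes under 10 TPM reach ratios of 6.13 (Hist1h2ab) and 7.74 (Hist1h2ai), whereas the 6 genes above 100 TPM lie between 0.969 (Hist1h4c) and 1.60 (Hist1h4d).

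Copies that share sequence showed how the split of shared reads moved between libraries. Hist1h4m and Hist1h4n have the same coding sequence. In DKO 7, 8 and 9 they had 76.0, 24.2 and 46.5 TPM of Hist1h4m with 0.0246, 35.9 and 17.0 TPM of Hist1h4n. In WT 4, 5 and 6 they had 46.0, 57.0 and 77.5 TPM of Hist1h4m, with 19.1 TPM of Hist1h4n in WT 4, almost none in WT 5 and a listed 0 in WT 6. Each copy swung between libraries of the same group, yet the pair summed to 66.6 ± 8.37 TPM in DKO and 66.5 ± 10.3 TPM in WT. Hist1h4n was among the 8 genes with the largest differences on the log2 scale (1.69, SE 1.64), a value the pair sum does not share.

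Hist2h3c2 was also among those 8 genes. It had 27.0, 26.7 and 19.4 TPM in DKO 7, 8 and 9, against 12.6 TPM in WT 4, 12.3 TPM in WT 5 and a listed 0 in WT 6. Its neighbour Hist2h3c1, which has 0% unique words and a longer annotated coding sequence (543 against 408 bases), was listed at 0 in 5 libraries and had 14.0 TPM in WT 6. The pair summed to 24.4 ± 4.30 TPM in DKO and 12.97 ± 0.938 TPM in WT, a ratio of 1.88, against 2.94 for Hist2h3c2 alone. Only 35.4% of the words of Hist2h3c1 are shared with other members. Its other words are shared with genes outside the set, which the pair sum does not absorb. The sums of the H2A pair Hist1h2ao and Hist1h2ap, also identical in coding sequence, were 11.6 ± 1.18 TPM in DKO and 17.0 ± 10.2 TPM in WT, with overlap. The H2B genes Hist1h2bq and Hist1h2br carried the same value in each of the 6 libraries, so they are not separate measurements.

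**Figure D4:**
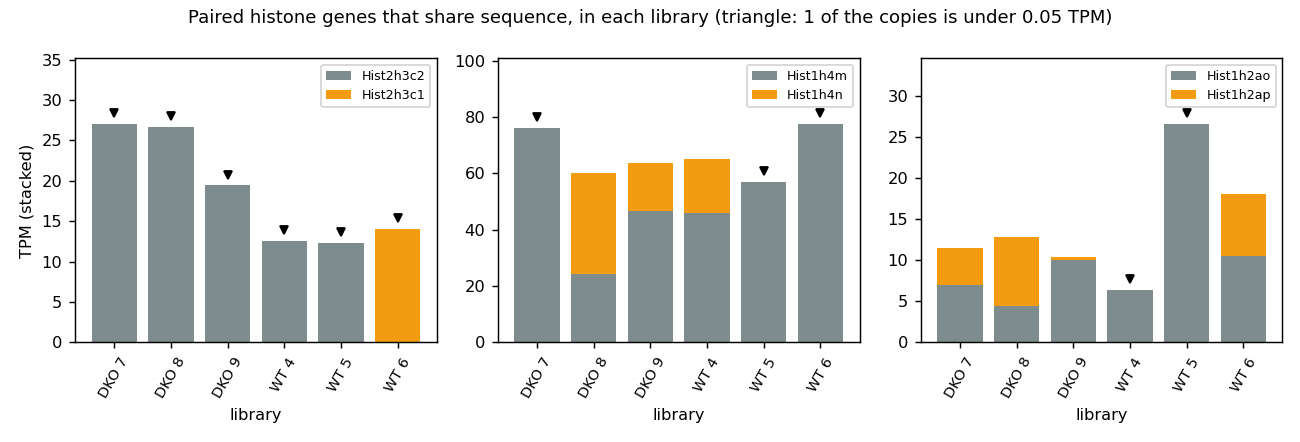
Stacked TPM (vertical axis, from 0) of paired histone genes that share sequence, in each DKO and WT library; a triangle marks a library in which 1 copy of the pair is under 0.05 TPM. The split between copies changes from library to library, while the Hist1h4m and Hist1h4n pair sums to 66.6 ± 8.37 TPM in DKO and 66.5 ± 10.3 TPM in WT.

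How unique a gene's words are had a weaker relation to its spread than its level had. The pooled SD on the log2 scale had a Pearson r of -0.25 and a Spearman rho of -0.24 with the share of unique words over the 62 genes, and a Pearson r of -0.50 and a Spearman rho of -0.61 with the log2 mean level. The 23 genes with at least 50% unique words had a median SD of 0.34, the 19 with 20% to 50% had 0.65 and the 20 with under 20% had 0.55, so the spread did not fall steadily with uniqueness. Summed over the 22 genes of the whole set with under 20% unique words the ratio was 1.31, and over the other 46, with 20% or more, it was 1.40, with no overlap of the groups in either sum. The median ratio of single genes ran the other way, 1.65 and 1.56. Hist2h2aa1, with a ratio of 1.10, averaged 253.5 of the 653 TPM of the first sum in DKO.

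Positions in the genome split the set into a few clusters. On GRCm38, 55 of the 68 genes lie on chromosome 13, of which 23 are in a first group at chr13:21715763-22043676 and 31 in a second at chr13:23531050-23934851. The exception is Hist1h2al at chr13:51202727-51203065, which GENCODE M21 annotates as a processed pseudogene although its symbol does not say so. Chromosome 3 holds 10 genes, chromosome 11 holds 2 and chromosome 6 holds 1, Hist4h4. The first chromosome 13 group summed to 374 ± 23.2 TPM in DKO and 232 ± 47.2 TPM in WT, a ratio of 1.61. The second group summed to 1926 ± 151 TPM in DKO and 1378 ± 114 TPM in WT, a ratio of 1.40. The chromosome 3 genes summed to 487 ± 32.0 TPM in DKO and 395 ± 46.4 TPM in WT, a ratio of 1.23, and these 3 sums did not overlap between the groups. Hist2h2aa1 alone averaged 253.5 TPM of the chromosome 3 sum in DKO and 229.7 TPM in WT. The median ratios of single genes lay closer, at 1.77, 1.57 and 1.54 in the same order. The genes on chromosomes 11 and 6 had ratios of 1.15 and 1.18 and overlapped between the groups.

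On these chromosomes, 12 pairs of an H2A and an H2B gene are transcribed away from each other, with starts from 176 to 306 bases apart. Both members had a higher mean TPM in DKO in 7 of the 12 pairs, and both had a positive difference on the log2 scale in 9. In the pair with the largest ratios, Hist1h2bl had a ratio of 4.53 and Hist1h2ai one of 7.74, and their starts are 279 bases apart. In the pair of Hist1h2ac and Hist1h2bc, whose starts are 251 bases apart, the ratios were 0.611 and 1.07.

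Promoter windows, from 250 bases before to 50 bases after the start (RefSeq, GRCm38.p6), were matched for 62 of the 68 genes and gave 63 windows. They were searched on both strands for the CCAAT box (letters CCAAT), the TATA box (letters TATAAA) and the octamer (letters ATTTGCAT), elements known from histone promoters, and none of the 3 contains another. The CCAAT box occurred in each of the 51 windows of H1, H2A, H2B and H3 genes but in 3 of 12 H4 windows, beside 37.4% of all 32851 promoters. The letters TATAAA occurred, at any place in the window, in 35 of the 63 windows, 55.6%, beside 13.6% of all promoters. The octamer occurred in 7 of 18 H2A and 7 of 17 H2B windows and in 0 windows of the other types, beside 1.74% of all promoters. The windows of Hist1h2ai, Hist1h3b and Hist1h4f are printed to show a promoter shared with an H2B gene, that of the called gene with the highest ratio in H3, and a called H4 gene without a CCAAT box. Capitals mark the letters of the CCAAT box and of the TATA box, on either strand. In Hist1h4f the letters TATAAA lie at the upstream end of the window and not near the start.
Hist1h2ai: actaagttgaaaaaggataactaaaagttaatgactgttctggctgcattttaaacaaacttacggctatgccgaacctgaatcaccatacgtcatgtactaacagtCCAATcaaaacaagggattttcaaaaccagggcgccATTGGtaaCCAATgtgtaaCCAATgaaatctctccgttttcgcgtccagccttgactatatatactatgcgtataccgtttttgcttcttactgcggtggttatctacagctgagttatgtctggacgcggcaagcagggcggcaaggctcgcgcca
Hist1h3b: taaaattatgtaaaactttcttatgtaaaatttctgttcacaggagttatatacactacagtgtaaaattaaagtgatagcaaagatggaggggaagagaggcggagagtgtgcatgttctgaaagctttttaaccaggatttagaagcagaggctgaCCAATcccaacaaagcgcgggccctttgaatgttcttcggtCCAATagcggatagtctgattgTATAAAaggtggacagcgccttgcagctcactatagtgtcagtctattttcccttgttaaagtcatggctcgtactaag
Hist1h4f: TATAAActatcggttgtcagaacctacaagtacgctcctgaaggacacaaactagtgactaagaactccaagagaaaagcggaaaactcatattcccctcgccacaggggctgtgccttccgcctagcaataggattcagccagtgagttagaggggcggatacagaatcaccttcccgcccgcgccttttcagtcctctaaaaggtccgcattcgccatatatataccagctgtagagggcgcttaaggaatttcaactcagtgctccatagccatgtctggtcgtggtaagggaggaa
They lie at chr13:21716162-21716461 (Hist1h2ai, plus strand), chr13:23752095-23752394 (Hist1h3b, plus) and chr13:23551619-23551918 (Hist1h4f, minus). A match is a description of these letters and not a site of binding.

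Annotated transcript ends relative to the stem-loop were compared because the polyadenylated forms extend past it. The 23 genes whose longest extension was at most 100 bases summed to 942 ± 62.9 TPM in DKO and 740.2 ± 93.6 TPM in WT, a ratio of 1.27. The 23 genes with annotated transcripts running over 100 bases past it summed to 1473 ± 102 TPM in DKO and 1034 ± 92.9 TPM in WT, a ratio of 1.42. The 22 genes without a match summed to 486 ± 40.6 TPM in DKO and 328 ± 55.2 TPM in WT, a ratio of 1.48. They are not a class of transcript end, since some of their annotated transcripts stop near the end of the coding sequence. None of the 3 sums overlapped between the groups. Sums weigh the most abundant genes most. The median ratio of single genes was 1.62, 1.42 and 1.74 in the same order, so the first 2 sets ranked the other way by median. TPM per gene does not separate the forms. Other RNAs without a poly(A) tail, 128 rows of small nuclear, small nucleolar and related RNAs, summed to between 54179 and 65987 TPM in DKO and between 51604 and 59319 TPM in WT, with overlap. Whether the libraries were depleted of ribosomal RNA or selected for poly(A) is not given in the sources used here. Whether capture of such RNAs differed between the libraries was not tested beyond these values.

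The replication-independent histone genes were set beside the 68 genes. Of 11 tested, 3 rose and 1 fell in DKO (limma, BH over all genes), beside 6.51% of all genes called higher and 4.22% called lower, and their median difference was 0.43, beside 0.03 over all genes. With replicate 7 as WT, 0 of the 11 were called. How many of all genes that fit called is not given. H2afy, which encodes macroH2A, rose to 52.6 ± 2.16 TPM in DKO, against 35.7 ± 1.98 TPM in WT (difference 0.55, SE 0.08; limma, BH adjusted p = 0.00960). H3f3a rose to 566 ± 24.3 TPM in DKO, against 414 ± 28.4 TPM in WT (difference 0.45, SE 0.07; limma, BH adjusted p = 0.0132). H3f3b, which encodes the same H3.3 protein, rose to 151 ± 6.18 TPM in DKO, against 112 ± 12.6 TPM in WT (limma, BH adjusted p = 0.0314), and was called in 1 of 6 fits that leave out a library. Cenpa, the H3 variant of centromeres, fell to 29.1 ± 3.31 TPM in DKO, against 43.6 ± 2.76 TPM in WT (difference -0.57, SE 0.11; limma, BH adjusted p = 0.0211), and was called in 3 of those 6 fits. Without DKO 9 or without WT 5 the list had 2 calls.

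Genes for making and handling histone mRNA and protein were then examined. Of 22 genes of histone gene transcription, stem-loop processing and decay, 20 were tested. The limma fit called 0 higher and 0 lower, with 0 at an unadjusted p under 0.05, and the median difference was -0.03. Of all 14541 genes, 10.7% were called in either direction, and 3921 had an unadjusted p under 0.05. The smallest p-values in that list belonged to Cpsf3, the nuclease that cuts histone pre-mRNA, with 37.5 ± 3.70 TPM in DKO and 31.5 ± 2.79 TPM in WT (limma, BH adjusted p = 0.202), and to Upf1, a helicase needed for histone mRNA decay, with 38.1 ± 6.22 TPM in DKO and 45.7 ± 1.88 TPM in WT (limma, BH adjusted p = 0.220). Lsm11, a protein of the U7 particle, and Sympk, a scaffold of the cleavage complex, followed with adjusted p (limma, BH) of 0.225 and 0.450. Zfp473 and Rnu7, the U7 RNA gene, did not reach the level filter.

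Of 18 histone chaperone genes, 17 were tested, and the limma fit called 0 higher and 0 lower, with 3 at an unadjusted p under 0.05. The median difference was 0.09. Nap1l1, an H2A and H2B chaperone, averaged 129 ± 7.35 TPM in DKO and 105 ± 9.31 TPM in WT (limma, BH adjusted p = 0.0800). Chaf1a, a subunit of the factor that deposits H3.1 on new DNA, averaged 3.47 ± 0.289 TPM in DKO and 1.91 ± 0.498 TPM in WT (limma, BH adjusted p = 0.0851). Nasp, which holds H3 and H4, and Hira, which deposits H3.3, had adjusted p (limma, BH) of 0.175 and 0.265.

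Of 32 genes of DNA replication and S phase, 30 were tested, and 12 rose and 0 fell in DKO (limma, BH over all genes), beside 6.51% of all genes called higher and 4.22% called lower. With replicate 7 as WT, 0 of the 30 were called, and the share of all genes called in that fit is not given. The list was chosen with earlier results of these libraries known, so its calls are not independent support for a pattern. Their median difference was 0.62, beside 0.03 over all genes, and in 20 of the 30 all DKO values lay above all WT values, beside 19.1% of all genes. Mcm7, a subunit of the replicative helicase, had 19.4, 19.7 and 19.0 TPM in DKO 7, 8 and 9, against 8.63, 8.66 and 9.40 TPM in WT 4, 5 and 6. The groups were far apart relative to their spread (difference 1.04, SE 0.10; limma, BH adjusted p = 0.00362). Ccne1, the cyclin of entry into S phase, rose to 4.28 ± 1.01 TPM in DKO, against 0.967 ± 0.134 TPM in WT (difference 1.41, SE 0.21; limma, BH adjusted p = 0.0107). Mki67, a marker of cycling cells, rose to 7.66 ± 1.46 TPM in DKO, against 2.63 ± 0.465 TPM in WT (difference 1.25, SE 0.19; limma, BH adjusted p = 0.0111). Top2a, the topoisomerase of mitotic chromosomes, rose to 6.51 ± 1.09 TPM in DKO, against 2.35 ± 0.375 TPM in WT (difference 1.16, SE 0.18; limma, BH adjusted p = 0.0116). These 4 genes were called in each of the 6 fits that leave out a library, whereas the number called in the list ran from 5 to 9, with 5 without DKO 8 and 6 without DKO 7. The S-phase list and the histone genes were compared over the same libraries, so their differences are not independent of each other.

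**Figure D5:**
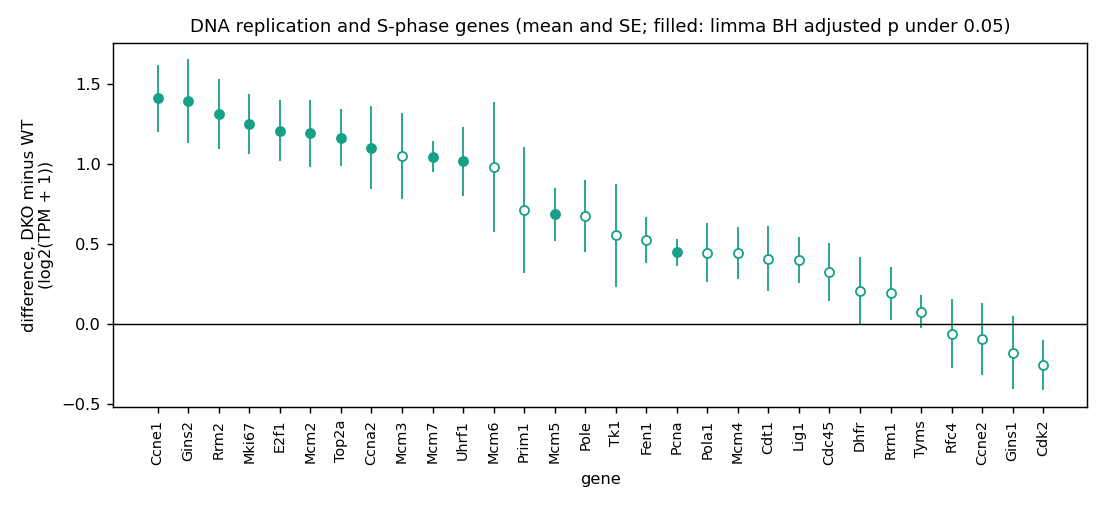
Difference between DKO and WT on the log2(TPM + 1) scale (vertical axis) for the 30 tested genes of DNA replication and S phase, in order of size; lines are the SE of the limma fit and filled points are the 12 genes called. The called genes have differences from 0.45 (Pcna) to 1.41 (Ccne1).

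Facts of the libraries as a whole bear on these values. Mbnl1 had 102, 108 and 107 TPM in DKO 7, 8 and 9, against 161, 160 and 145 TPM in WT 4, 5 and 6 (difference -0.55; limma, BH adjusted p = 0.00673). Mbnl2 had 227, 240 and 245 TPM in DKO, against 189, 168 and 149 TPM in WT (difference 0.49; limma, BH adjusted p = 0.0232), and neither level per gene checks the deletion, so DKO stands for libraries labelled so. In both genes DKO 7 lay outside the WT range, on the side of DKO 8 and DKO 9. With replicate 7 counted as WT the histone sum had a ratio of 1.21 and 0 histone genes were called. Summed Y-linked transcripts were 0.217 and 0.356 TPM in DKO 7 and 8, 179 TPM in DKO 9 and from 163 to 179 TPM in WT. Between DKO 9 and the 3 WT libraries the ratio of the histone sum was 1.41, and those of H1, H2A, H2B, H3 and H4 were 1.58, 1.24, 1.24, 1.98 and 1.41. No WT library was low in Y-linked transcripts, so a term for them in the fit takes up DKO 7 and DKO 8. The DKO difference of that fit is therefore that of DKO 9 alone against the 3 WT libraries, and its calls are not given. Y-linked level and group cannot be told apart for DKO 7 and DKO 8. For the fit with replicate 7 as WT the share of all genes called is not given. Fewer histone calls there are not told apart from fewer calls everywhere.

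Markers of the labelled tissue were high. Of the other cell types, the macrophage, neutrophil and endothelial sums differed between the groups without overlap, and the fibroblast, erythroid and lymphocyte sums overlapped. The 8 cardiomyocyte markers, of which 2 were called lower, summed to between 60640 and 61136 TPM in DKO and between 64312 and 65987 TPM in WT. Of all genes tested, 6.51% were called higher and 4.22% lower. The 6 macrophage markers, of which 3 were called higher, summed to between 279 and 394 TPM in DKO and between 122 and 192 TPM in WT, without overlap. The 4 neutrophil markers (0 of 2 tested called) summed to between 11.7 and 53.1 TPM in DKO and between 5.34 and 8.67 TPM in WT. The 5 fibroblast markers, 2 of them called higher, summed to between 1464 and 1789 TPM in DKO and between 1550 and 1693 TPM in WT, with overlap. The 5 endothelial markers, 2 of them called lower, summed to between 1371 and 1434 TPM in DKO and between 1479 and 1872 TPM in WT. The 7 erythroid markers (1 of 6 tested called lower) ran from 1782 to 6764 TPM in DKO and from 6046 to 38465 TPM in WT, with overlap. The 5 lymphocyte markers (1 of 2 tested called lower) ran from 4.14 to 5.64 TPM in DKO and from 4.56 to 12.1 TPM in WT, with overlap. None of these markers was at 0 in all libraries. In bulk tissue, more cells of a type and more histone mRNA per cell cannot be told apart, and the part of the cell types in the histone sums was not tested.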

How the data were processed

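RNA from mouse heart was compared between 3 DKO and 3 WT libraries. The authors deposited TPM per gene and library; bcl2fastq and kallisto 0.44.0 with mm10 are named in the submitters' processing notes, and the annotation is not given in the sources used here. Counts cannot be recovered from TPM, so neither depth nor a counting interval is given. Kallisto splits shared reads between near-identical copies by estimate, and TPM is relative to each library's total. The first symbol column was used; a second names another symbol in 6 of the 68 rows and is empty in 4.

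A gene entered the fit where 3 or more libraries had 1 TPM or more. Log2(TPM + 1) was fitted with limma 3.58.1 in R 4.3.3 (lmFit, eBayes with trend); p-values were adjusted by Benjamini-Hochberg across the genes fitted, and calls were made at 0.05. The fit was tested on simulated data. Sums are of TPM as deposited. Words of 31 bases, stem-loops and coding sequences are from GENCODE M21 and promoters from RefSeq; GENCODE positions are on GRCm38, which is mm10. Scripts ran in python 3.11.15. Groups follow titles and source names. The members and lists were chosen with earlier results of these data known. Named genes are the 4 highest by mean of each type, the 8 largest differences, the 4 smallest p of each other list, Mbnl1 and Mbnl2; genes called, Hist1h2ac and copies of a pair were also named after their values were seen. Alternatives were pseudocount 0.1, no filter or a filter of 5 TPM, no trend, array weights, 3 other scalings, replicate 7 as WT, a term for Y-linked transcripts and each library left out. Sums without the highest gene of each type, and without genes under 20% unique words, were added after seeing the data.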

Additional observations from a re-analysis of the deposited data

How the results depend on the processing

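The 9 histone genes called kept a higher DKO mean under all 16 other settings of the fit. The count of called histone genes was 3 with no filter on low values, 5 without the trend, 0 with replicate 7 as WT, and from 5 to 12 with 1 library left out. The cause was not tested, and the share of all genes called under each setting is not given. A fall in these counts, or in those of the lists below, is therefore not told apart from a fall in calls over all genes. With replicate 7 as WT the log2 ratio of the summed TPM was 0.27 for all histone genes, 0.30 for H1, 0.18 for H2B, 0.55 for H3 and 0.30 for H4, in place of 0.46, 0.54, 0.45, 0.94 and 0.44, since a library with high values then counts as WT. Without the highest gene of each type it was 0.69 for H2B. With 1 library left out it ran from 0.39 to 0.52 for all genes, 0.48 to 0.65 for H1, 0.14 to 0.35 for H2A, 0.36 to 0.54 for H2B, 0.81 to 1.03 for H3 and 0.37 to 0.50 for H4. The calls among replication-independent histone genes, 4 in all, were 2 with no filter, 0 with replicate 7 as WT and from 2 to 4 with 1 library left out. The calls among S-phase genes, 12 in all, were 2 with no filter, 6 with a filter of 5 TPM, where 17 genes were tested, 0 with replicate 7 as WT and from 5 to 9 with 1 library left out. The processing and chaperone lists had 0 calls under each of these settings. Counts of calls with a term for Y-linked transcripts are not given, because the DKO difference of that fit rests on DKO 9 alone. Of the genes named singly, 74 values lost a call, 9 gained one, 1 moved by more than its error and 630 did neither. The moved value is Hist1h2bc, at -0.07 with replicate 7 as WT. Depth is unknown, so values near 1 TPM and those of near-identical copies are the least certain. No paired analysis was possible because the groups share no replicate numbers.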
